A study of Mus musculus with 27 samples.

Results

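The genes described here are 60 mouse genes for synaptic vesicle proteins and for SNARE proteins, the coiled membrane anchors that pull a vesicle and its target membrane together. They are the protein-coding genes of the count table whose GENCODE symbol begins with Syt, Stx, Stxbp or Vamp followed by a number, or is Snap25, Syp, Syn1, Syn2, Syn3, Sv2a, Sv2b, Sv2c, Synj1, Synj2, Cplx1, Cplx2, Cplx3 or Cplx4. The rule uses names and no measured value. It matched 62 symbols, and the 2 pseudogenes among them, Stxbp3-ps and Vamp7-ps, were left out, so that 60 of the 37332 genes of the table (60 of 21208 protein-coding genes) are members. By role the members are 5 neuronal SNAREs, 7 vesicle membrane and synapsin genes, 17 synaptotagmins, 11 SNARE regulators, 2 synaptojanins and 18 SNAREs of general membrane traffic. Of the 60, 56 passed the filter on low counts. The other 4 were not tested: Cplx4, Stx19, Syt15 and Syt8 had at most 4, 2, 15 and 27 counts summed over the 3 libraries of any group.

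Release of neurotransmitter depends on a bundle of SNARE helices, contributed by synaptobrevin (Vamp2) on the vesicle and by syntaxin 1 (such as Stx1a) and SNAP-25 (Snap25) on the plasma membrane. Munc18 proteins, such as those encoded by Stxbp2 and Stxbp3, hold syntaxin and help the bundle form, complexins bind it as it zips, and the calcium sensor Syt1 triggers the final fusion. Synapsins tether vesicles in reserve, synaptojanins strip the clathrin coat from vesicles taken back from the surface, and most other syntaxins and VAMPs fuse Golgi, endosomal and lysosomal carriers in cells of every kind.

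The levels come from polyadenylated RNA longer than 200 nt, sequenced from 3 fractions of 3 mouse cell types with 3 biological replicates each, which makes 9 groups and 27 libraries with paired reads of 100 bp. The cell types are the embryonic stem cell line E14, kept on gelatin with LIF (mESC), a neural progenitor line derived in the submitters' laboratory and given EGF and FGF at 10 ng/ml each day in a B27 medium without vitamin A (mNPC), and primary cortical neurons held on poly-L-lysine for 5 days (mCtx). The fractions are RNA bound to chromatin, RNA of the soluble nucleoplasm and RNA of the cytoplasm. No genetic change and no treatment set the groups apart. Each of mESC and mNPC is 1 cell line, and the labels name no sort of the neurons. Library totals ran from 10622897 to 24537526 counts. The labels do not say whether the replicates were separate cultures or animals, so the p-values measure the spread between these libraries.

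Summed over each list, the markers of the named cell types were highest in the cytoplasm of the cell type with that label. The 8 pluripotency markers summed to 6710 to 7130 TPM (transcripts scaled for length and depth) in mESC, 6.59 to 8.64 TPM in mNPC and 2.04 to 2.24 TPM in mCtx libraries. The neuron markers summed to 138 to 200.0 TPM in mESC, 240.0 to 320.0 TPM in mNPC and 3050 to 3600 TPM in mCtx. Most of the mNPC sum was Map2 (mean 220.0 TPM, against 4.13 TPM in mESC). Tubb3, Nefl, Elavl3 and Rbfox3 had lower means in mNPC than in mESC (146 and 35.5 TPM in mESC and mNPC for Tubb3). Progenitor markers summed to 296 to 364, 5210 to 6100 and 1660 to 2530 TPM in mESC, mNPC and mCtx. Most of that sum was Sox2 in mESC (mean 307 TPM) and Fabp7 in mCtx (mean 1840 TPM). Astrocyte markers summed to 59.3 to 65.1, 885 to 1120 and 207 to 218 TPM, and oligodendrocyte markers to 34.6 to 41.4, 391 to 617 and 16.0 to 17.8 TPM. Microglial markers reached at most 19.3 TPM, endothelial markers 18.3 TPM and fibroblast markers 4.89 TPM in any library. The part of these other cells in the levels below was not tested. In such bulk samples, fewer cells of a type and less RNA per cell cannot be told apart.

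Members were found in all 3 cell types and took up the largest part of the RNA in mCtx. Summed over the 59 members in the TPM table, they reached 1303 ± 35.5 TPM in chromatin, 565 ± 13.3 TPM in nucleoplasm and 584 ± 56.1 TPM in cytoplasm of mESC (SD, n = 3 here and below). The sums were 2383 ± 29.4, 964 ± 64.6 and 1296 ± 51.8 TPM in the same fractions of mNPC, and 4303 ± 63.6, 3391 ± 106 and 3964 ± 217 TPM in those of mCtx. By the share of counts, which does not divide by transcript length, mCtx chromatin stood lowest and not highest among the mCtx fractions, since members took 0.59% of counts in chromatin, 0.681% in nucleoplasm and 0.795% in cytoplasm. Of the 59 members, 34 averaged at least 1 TPM in mESC cytoplasm, 42 in mNPC cytoplasm and 49 in mCtx cytoplasm, and 0, 3 and 14 of them averaged at least 100 TPM. The neuronal SNAREs Snap25, Stx1a, Vamp1 and Vamp2 together summed to 24.4 ± 1.79 TPM in mESC, 83.9 ± 7.65 TPM in mNPC and 929 ± 51.8 TPM in mCtx cytoplasm. The synaptotagmins summed to 23.5 ± 4.85, 170.0 ± 30.4 and 1037 ± 88 TPM in the same order, and the traffic SNAREs to 371 ± 11.8, 847 ± 28 and 819 ± 27.6 TPM. The highest single members of the cytoplasm were Stxbp2 in mESC (93.95 ± 35.8 TPM), Vamp3 in mNPC (177 ± 12.3 TPM) and Vamp2 in mCtx (540.0 ± 13.3 TPM).

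**Figure D1:**
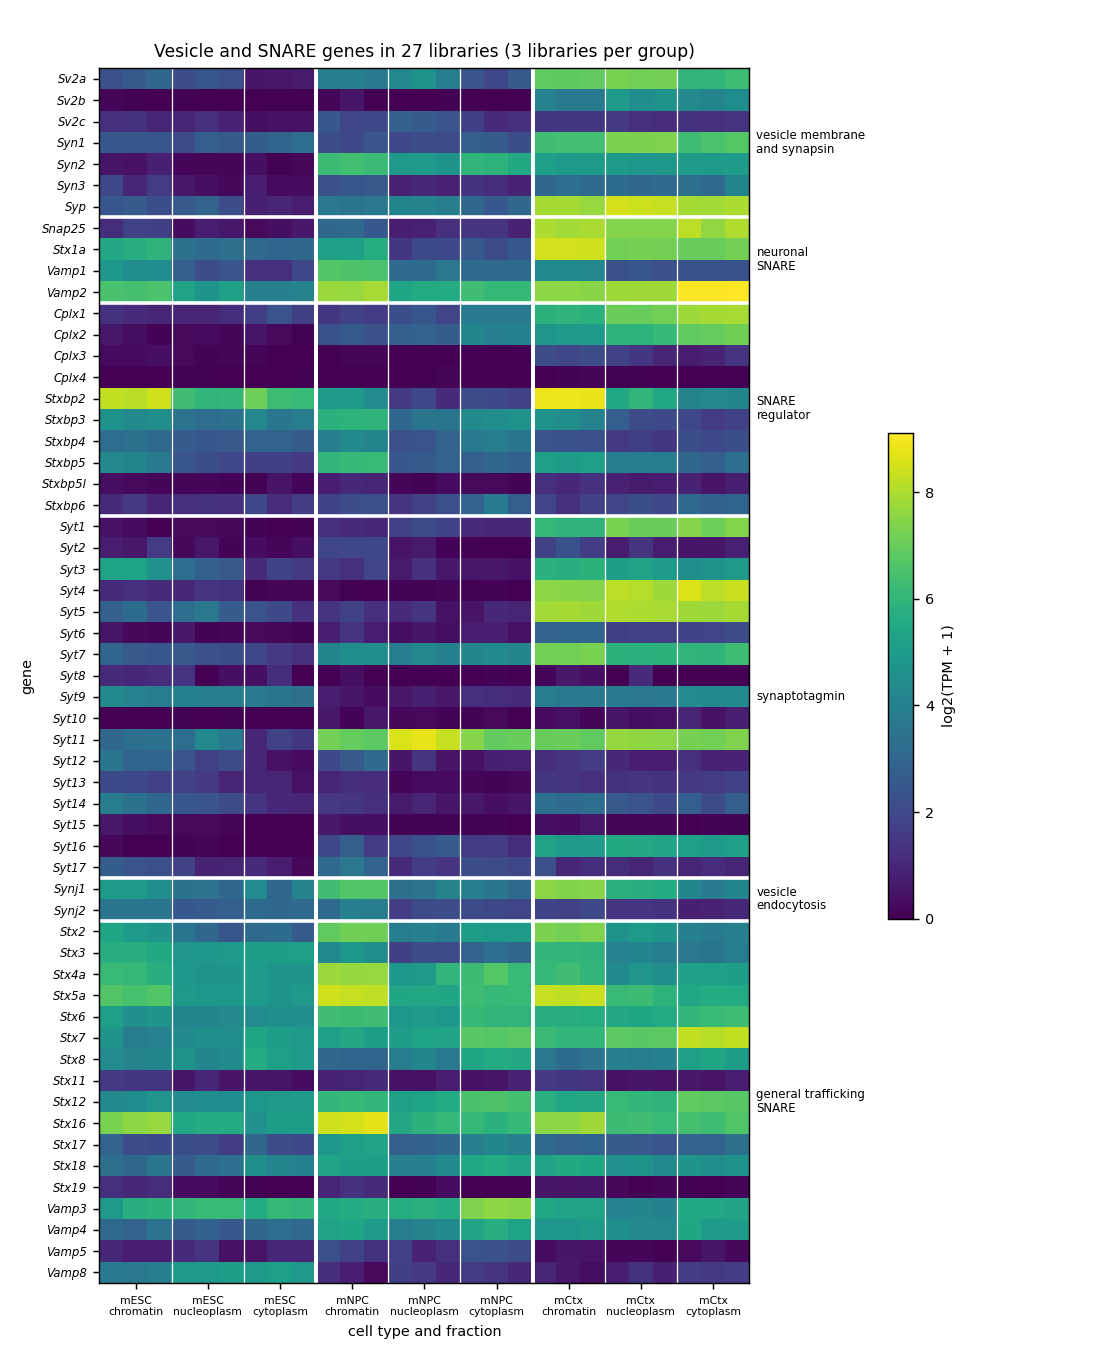
Level of 57 members in the TPM table, as log2(TPM + 1), in each of the 27 libraries, with members grouped by role and libraries by cell type and fraction. Most traffic SNAREs are filled in all 3 cell types, though Stx11, Stx19 and Vamp5 are low throughout and Vamp8 is low outside mESC. Syt4, Syt5 and Sv2b stand out in the mCtx columns.

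Between cell types, the members were compared in the cytoplasm and in chromatin with edgeR's quasi-likelihood test, and a member was called when its Benjamini-Hochberg adjusted p was under 0.05 and its log2 fold change at least 1 in size. In the cytoplasm, 30 of 56 members rose and 8 fell in mCtx relative to mNPC (53.6% and 14.3%), where 24.4% of all 18226 tested genes were called higher and 20.0% lower, and the median log2 fold change was 1.70 over members and 0.0 over all genes. In mNPC relative to mESC, 33 rose and 12 fell (58.9% and 21.4%), against 29.8% and 29.6% of all tested genes, with medians of 1.47 and -0.01. In mCtx relative to mESC, 38 rose and 6 fell (67.9% and 10.7%), against 35.7% and 32.2% of all tested genes, with medians of 2.19 and 0.06. These 3 comparisons share their libraries pairwise and are not independent of each other. In chromatin the counts were 27 up and 10 down for mCtx over mNPC (background 23.5% and 21.4%), 28 up and 12 down for mNPC over mESC (25.3% and 31.9%), and 31 up and 9 down for mCtx over mESC (29.3% and 32.3%), with member medians of 0.95, 1.01 and 1.57. Of the 17 tested traffic SNAREs, 12 rose and 2 fell in the cytoplasm of mNPC relative to mESC, while 2 rose and 4 fell in mCtx relative to mNPC. Of the 15 tested synaptotagmins, 8 rose and 6 fell in mNPC relative to mESC, while 12 rose and 1 fell in mCtx relative to mNPC. For the 7 vesicle membrane and synapsin genes the counts were 4 up and 0 down for mNPC over mESC and 5 up and 0 down for mCtx over mNPC. Whether the roles differ in these counts was not tested.

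The neuronal SNAREs are described here by Snap25, Stx1a, Vamp2 and Vamp1. Snap25, which gives a pair of helices to the bundle, lies at chr2:136713453-136782428 on the plus strand of the mouse build mm10, which all gene positions here refer to. Levels per library are given in CPM, the read counts scaled to library depth. Snap25 had 0.295, 0.621 and 0.757 CPM in mESC cytoplasm, 1.85, 1.87 and 1.12 CPM in mNPC cytoplasm, and 364, 267 and 329 CPM in mCtx cytoplasm. All mCtx libraries stood far above all others, and the mNPC libraries above the mESC ones. Its log2 fold change was 7.59 ± 0.26 for mCtx over mNPC (edgeR adjusted p = 9.5e-19) and 1.51 ± 0.36 for mNPC over mESC (edgeR adjusted p = 0.00047), the second being 0.81 and not called on the log2(TPM + 1) scale. In chromatin Snap25 had 3.41, 6.56 and 5.63 CPM in mESC, 13.5, 13.5 and 11.5 CPM in mNPC, and 352, 309 and 329.6 CPM in mCtx. There mCtx was again far above the rest, and no mNPC library fell below any mESC library.

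Stx1a, a target-membrane syntaxin at chr5:135023482-135051100 on the plus strand, had 10.3, 11.1 and 12.1 CPM in mESC cytoplasm, 5.38, 4.13 and 5.96 CPM in mNPC cytoplasm, and 199, 216 and 229 CPM in mCtx cytoplasm. The mNPC libraries were the lowest and the mCtx libraries the highest, with no overlap between cell types. Its log2 fold change was 5.38 ± 0.17 for mCtx over mNPC (edgeR adjusted p = 1.7e-19), and -1.12 ± 0.16 for mNPC over mESC (edgeR adjusted p = 4.2e-07). The mNPC over mESC call was lost without mNPC cytoplasm replicate 2 (-0.99), on library totals (-0.98) and on the log2(TPM + 1) scale (-0.65).

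Vamp2, the vesicle SNARE of synapses, lies at chr11:69088490-69092384 on the plus strand and had 19.1, 22.7 and 25.3 CPM in mESC cytoplasm, 113, 99.3 and 108 CPM in mNPC cytoplasm, and 850.0, 930.2 and 897 CPM in mCtx cytoplasm. It was already above 100 CPM on average in mNPC, where Snap25 and Stx1a averaged 1.61 and 5.16 CPM. Its log2 fold change was 2.25 ± 0.14 for mNPC over mESC and 3.06 ± 0.14 for mCtx over mNPC in the cytoplasm. In chromatin Vamp2 had 36.7, 37.2 and 46.7 CPM in mESC, 108, 92.1 and 107 CPM in mNPC, and 133, 141 and 132 CPM in mCtx. The mCtx chromatin libraries lay above the mNPC ones by a log2 fold change of 0.40 ± 0.13, which was not called. Vamp1, another synaptobrevin, used mainly at fast synapses of brainstem and spinal cord, had another course, with 2.36, 1.35 and 2.56 CPM in mESC cytoplasm, 14.7, 11.8 and 13.3 CPM in mNPC cytoplasm, and 8.05, 8.81 and 7.84 CPM in mCtx cytoplasm. It rose in mNPC relative to mESC (log2 fold change 2.67 ± 0.22) and was not called between mCtx and mNPC in the cytoplasm (-0.69 ± 0.19), while in chromatin it fell in mCtx, with 15.98, 17.7 and 16.3 CPM in mCtx and 127, 115 and 118 CPM in mNPC (log2 fold change -2.85 ± 0.19).

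**Figure D2:**
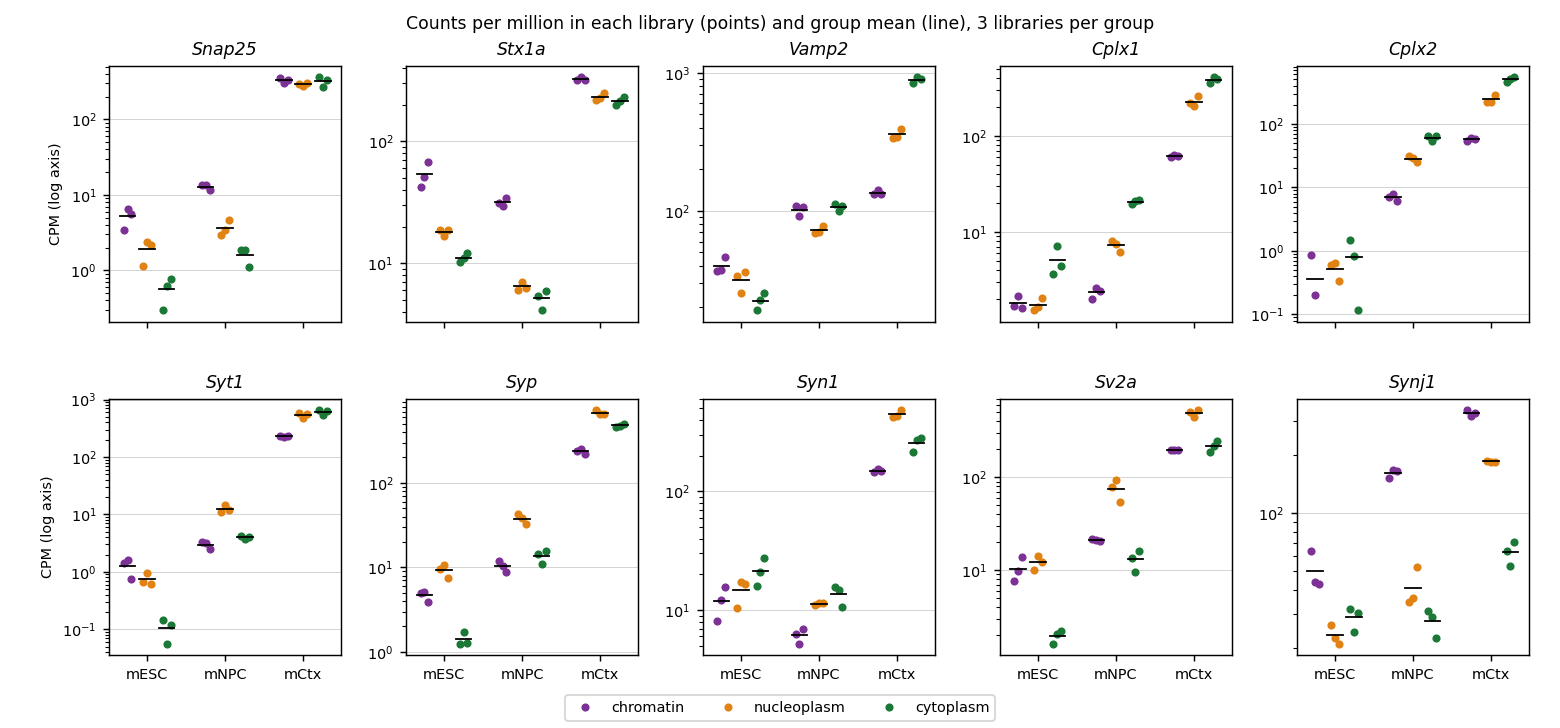
Level in CPM (log axis) of 10 members in each library, by cell type and by fraction; each point is 1 library. Snap25, Stx1a, Syt1 and Syp sit far higher in mCtx than in the other cell types in all 3 fractions, and Vamp2, Cplx1 and Cplx2 fall below their cytoplasmic level in mCtx chromatin. Cplx2 has 0 CPM in mESC chromatin replicate 3, which a log axis cannot show.

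The chromatin-to-cytoplasm ratio of these 4 neuronal SNAREs was lower in mCtx than in the other cell types. A chromatin-to-cytoplasm log2 fold change compares the relative level of a gene in 2 fractions of the same cells, so it gives no amount per cell. In mESC 3 of the 4 were called higher in chromatin and 0 lower, in mNPC 3 and 0, and in mCtx 1 and 1. The background was 34.4% and 21.6%, 27.5% and 21.3%, and 26.2% and 24.4% of all tested genes. Medians were 2.72, 2.78 and 0.32 over the 4, and 0.37, 0.12 and 0.0 over all tested genes. For Snap25, every mNPC chromatin library lay above every mNPC cytoplasm library (log2 fold change 2.95 ± 0.25), while the mCtx fractions overlapped (0.05 ± 0.19). Stx1a had log2 fold changes of 2.26 ± 0.15 in mESC, 2.62 ± 0.16 in mNPC and 0.59 ± 0.14 in mCtx, of which the first 2 were called. Vamp2 had the lowest mCtx ratio of the 4, with no chromatin library near the cytoplasmic ones and a log2 fold change of -2.72 ± 0.14 (edgeR adjusted p = 5.8e-15), against -0.06 ± 0.13 in mNPC. Vamp1 stayed on the chromatin side in mESC (3.83 ± 0.22) and in mNPC (3.18 ± 0.19), with 127, 115 and 118 CPM in mNPC chromatin, against 14.7, 11.8 and 13.3 CPM in mNPC cytoplasm. Its value in mCtx (1.01 ± 0.19) stood at the threshold and was not called without mCtx chromatin replicate 2 (0.97) or mCtx cytoplasm replicate 1 (0.99) or 3 (0.98), or without the mESC libraries numbered 1 (0.96). On the log2(TPM + 1) scale the mNPC ratio of Vamp2 was 1.64, called higher in chromatin, and that of Stx1a in mCtx was 1.42, also called.

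The change in this ratio between mCtx and mNPC was tested as a difference of the 2 log2 fold changes, and all 4 neuronal SNAREs were called lower. The differences were -2.91 ± 0.31 for Snap25, -2.66 ± 0.19 for Vamp2, -2.16 ± 0.26 for Vamp1 and -2.03 ± 0.20 for Stx1a (edgeR adjusted p at most 6.7e-07). Over all members 13 of 56 were lower and 4 higher in this comparison (23.2% and 7.14%), against 11.4% and 7.68% of all tested genes, with medians of -0.48 and -0.04. Each of the 4 kept its call under all 23 alternative settings and left-out libraries, with ranges of -3.02 to -1.72 for Snap25, -3.19 to -2.55 for Vamp2, -2.25 to -1.38 for Vamp1 and -2.13 to -1.52 for Stx1a. Of 8 general neuron markers 1 was higher and 1 lower in the same comparison, with a median of -0.27. Of 19 genes of the endoplasmic reticulum chaperone and translocation list 0 were called (median 0.01), and of 11 mitochondrially encoded mRNAs 5 were lower (median -1.28). The part of the mitochondrial RNA in these values was not tested.

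**Figure D3:**
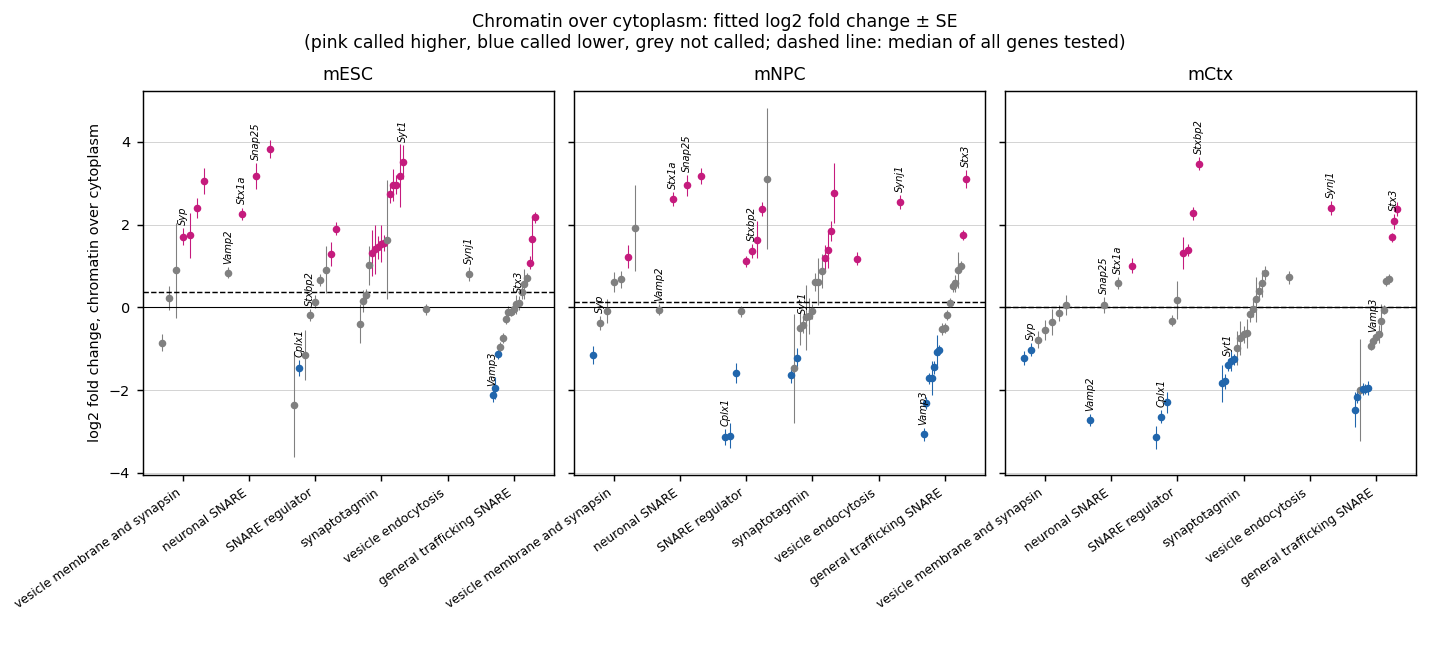
Chromatin-to-cytoplasm log2 fold change of 54 tested members in mESC, mNPC and mCtx, grouped by role; points are fitted values, bars are SE, pink marks members called higher in chromatin, blue members called lower and grey the rest, and the dashed line is the median of all 18226 tested genes. Vesicle membrane genes and synaptotagmins lie mostly above the all-gene median in mESC and below it in mCtx.

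The vesicle membrane genes and synapsins rose to their highest level in mCtx, except Syn2 and Sv2c. Syp, which encodes synaptophysin, the most abundant membrane protein of the vesicle, had 1.25, 1.69 and 1.28 CPM in mESC cytoplasm, 14.2, 10.8 and 15.6 CPM in mNPC cytoplasm, and 459, 478 and 499 CPM in mCtx cytoplasm. The 3 cell types did not overlap, and the log2 fold changes were 3.25 ± 0.20 for mNPC over mESC and 5.14 ± 0.18 for mCtx over mNPC (edgeR adjusted p = 7.4e-19). Sv2a, a transporter-like protein of nearly all synaptic vesicles, had 1.62, 2.03 and 2.21 CPM in mESC cytoplasm, 13.6, 9.58 and 16.2 CPM in mNPC cytoplasm, and 189.7, 219.8 and 247 CPM in mCtx cytoplasm. Its log2 fold changes were 2.73 ± 0.25 and 4.06 ± 0.22 for the same pairs. Its relative Sv2b had few reads outside mCtx: it had 80.0, 74.7 and 88.9 CPM in mCtx cytoplasm (4607 counts), against 1 count in all mNPC cytoplasm libraries, a ratio of 4470-fold (exact 95% counting interval 802 to 177000). In chromatin Sv2b had 38.2, 33.4 and 32.04 CPM in mCtx, against 5 counts in mNPC and 3 counts in mESC. Sv2c, the third of this family, had 3.46 ± 0.262 CPM in mCtx and 6.93 ± 1.42 CPM in mESC cytoplasm. In TPM its order was the other way, with 1.5 ± 0.0889 TPM in mCtx and 0.337 ± 0.0404 TPM in mESC.

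The 3 synapsins, which tether vesicles to each other, each had their own course. Syn1 had 15.98, 20.8 and 27.7 CPM in mESC cytoplasm, 15.6, 14.7 and 10.6 CPM in mNPC cytoplasm, and 216, 273 and 283 CPM in mCtx cytoplasm. It was higher in every mESC library than in every mNPC library, but by less than the threshold (-0.65 ± 0.21), and rose in mCtx over mNPC by 4.23 ± 0.23 (edgeR adjusted p = 5.5e-15). Syn2 had 0.737, 0.169 and 0.117 CPM in mESC cytoplasm, 141, 139 and 113 CPM in mNPC cytoplasm, and 80.2, 87.6 and 88.8 CPM in mCtx cytoplasm. It was the member with the largest rise between mESC and mNPC, at 8.68 ± 0.40 on the log2 scale, or 9.76 without mESC cytoplasm replicate 1, and it was not called between mCtx and mNPC (-0.61 ± 0.24). In chromatin Syn2 had 1.802, 0.938 and 0.492 CPM in mESC, 191, 217 and 197 CPM in mNPC, and 60.9, 56.03 and 58.7 CPM in mCtx, and there it fell in mCtx relative to mNPC (-1.78 ± 0.25). Syn2 shares 21.6% of its span with the gene Gm17482 of the same strand, whose counts came to 18.4% of those of Syn2, so some of its reads may belong to either. Syn3 stayed low, at 0.892 ± 0.309 CPM in mESC, 2.81 ± 0.499 CPM in mNPC and 22.97 ± 8.05 CPM in mCtx cytoplasm, and rose at both steps.

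The start regions of Syn1 and Syp are printed because Syn1 alone among the 46 members with a RefSeq promoter holds the 9-letter core TTCAGCACC of the left part of the RE1 element, which the repressor REST binds in genes of neurons. Both are from RefSeq, build GRCm38.p6, from 250 bases before to 50 after the start, and run 5′ to 3′ along the gene. Syn1 lies on the minus strand at chrX:20920869-20921168, and capitals mark the RE1 core, which begins -232 bases from the start, and the cyclic AMP response element TGACGTCA, at -159. Syp lies on the plus strand at chrX:7638330-7638629 and holds none of the 3 motifs searched.
Syn1: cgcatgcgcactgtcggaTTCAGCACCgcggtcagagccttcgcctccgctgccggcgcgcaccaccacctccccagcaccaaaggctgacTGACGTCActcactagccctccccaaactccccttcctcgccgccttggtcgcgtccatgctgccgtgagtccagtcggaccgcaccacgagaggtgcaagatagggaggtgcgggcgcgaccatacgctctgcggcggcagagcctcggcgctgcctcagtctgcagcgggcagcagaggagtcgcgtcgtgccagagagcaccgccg
Syp: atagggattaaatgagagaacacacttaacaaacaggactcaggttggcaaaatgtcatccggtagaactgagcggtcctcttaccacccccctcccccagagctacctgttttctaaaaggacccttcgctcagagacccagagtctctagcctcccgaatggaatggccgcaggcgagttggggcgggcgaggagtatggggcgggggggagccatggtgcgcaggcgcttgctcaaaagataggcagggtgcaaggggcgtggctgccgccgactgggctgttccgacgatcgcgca
Both strands of each promoter were searched. The RE1 core is present in 117 of 27025 mouse promoters (0.433%), and the cyclic AMP response element in 549 (2.03%), among them those of Syn1 and Stxbp3. The third motif, TATAAA, is in 4234 promoters (15.7%), among them those of Stx2, Stx3 and Sv2b. A match is a match of letters in this window and shows no binding. The promoters of Syn1 and Syp hold 33 and 18 CpG pairs, with GC contents of 68.3% and 59.0%.

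In the fractions, Syp and Sv2a stood out in the nucleoplasm and Syn1 did not. Syp had 42.95, 38.1 and 32.5 CPM in nucleoplasm, against 14.2, 10.8 and 15.6 CPM in cytoplasm of mNPC, a log2 fold change of 1.49 ± 0.16, and the value was 2.70 ± 0.20 in mESC and 0.50 ± 0.15 in mCtx. Sv2a had 78.5, 94.6 and 53.7 CPM in nucleoplasm, against 13.6, 9.58 and 16.2 CPM in cytoplasm of mNPC (2.53 ± 0.21), and it was called in mESC (2.63 ± 0.25) and in mCtx (1.17 ± 0.19) too. For Syn1 the nucleoplasm-to-cytoplasm values were -0.55 ± 0.21, -0.28 ± 0.22 and 0.79 ± 0.20 in mESC, mNPC and mCtx, with no call. Chromatin-to-cytoplasm ratios of Syp were 1.71 ± 0.21 in mESC, -0.38 ± 0.16 in mNPC and -1.02 ± 0.15 in mCtx, the last being lost without mCtx chromatin replicate 3 (-0.96) or mCtx cytoplasm replicate 3 (-0.99) or with RLE scaling (-0.97) or library totals (-0.75) and -0.07 on the log2(TPM + 1) scale. The difference of mCtx from mESC in this ratio was -2.73 ± 0.25 for Syp and -2.54 ± 0.31 for Sv2a, both called, and 0.07 ± 0.29 for Syn1.

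Synaptotagmins are vesicle and membrane proteins with paired C2 domains, and their order by level differed between cell types. Syt1, the fast calcium sensor of release, had 0.147, 0.0565 and 0.117 CPM in mESC cytoplasm, 4.26, 3.69 and 4.099 CPM in mNPC cytoplasm, and 645, 543 and 642 CPM in mCtx cytoplasm. Its cytoplasmic level separated the 3 cell types with no overlap, and the log2 fold changes were 5.19 ± 0.34 for mNPC over mESC and 7.24 ± 0.20 for mCtx over mNPC (edgeR adjusted p = 1.6e-20). In chromatin Syt1 had 1.41, 1.59 and 0.760 CPM in mESC, 3.26, 3.204 and 2.48 CPM in mNPC, and 236, 222 and 236 CPM in mCtx. Its mNPC over mESC fold there (1.25 ± 0.21) was not called without mESC chromatin replicate 3 (1.00) or on the log2(TPM + 1) scale (0.89).

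Syt4, a synaptotagmin that does not bind calcium in the usual way, had 0.0736, 0.339 and 0.349 CPM in mESC cytoplasm, 0.172, 0.165 and 0 CPM in mNPC cytoplasm, and 1190.0, 954 and 1001 CPM in mCtx cytoplasm. The mESC and mNPC libraries all stayed under 1 CPM, and Syt4 was the highest synaptotagmin of mCtx cytoplasm, with the largest log2 fold change of any member, 12.93 ± 0.35 for mCtx over mNPC (edgeR adjusted p = 1.6e-20). In chromatin Syt4 had 309, 308 and 293 CPM in mCtx and 0.251, 0.0471 and 0 CPM in mNPC, so that the fold of 11.38 ± 0.35 there moved to 13.09 without mNPC chromatin replicate 1. Syt16, a synaptotagmin without calcium binding, came to 83.4, 77.4 and 80.6 CPM in mCtx chromatin, against 0.682, 0.530 and 0.0895 CPM in mESC chromatin, a log2 fold change of 7.52 ± 0.29. In the cytoplasm it had 5090 counts in mCtx, against 2 counts in mESC, a ratio of 2180-fold (exact 95% counting interval 605 to 18000).

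Syt11, which also lacks calcium binding and is found on endosomal and lysosomal membranes, was the highest synaptotagmin of mNPC cytoplasm by TPM. It had 3.02, 6.44 and 5.18 CPM in mESC cytoplasm, 518, 369.8 and 413 CPM in mNPC cytoplasm, and 477, 496 and 513 CPM in mCtx cytoplasm. It rose in mNPC relative to mESC by 6.45 ± 0.31 and was not called between mCtx and mNPC (0.19 ± 0.24). It was highest in the nucleoplasm of mNPC, at 1652, 1642 and 1227 CPM, against 518, 369.8 and 413 CPM in the cytoplasm, a log2 fold change of 1.80 ± 0.25. In mESC it had 20.5, 54.5 and 40.4 CPM in nucleoplasm, a ratio to cytoplasm of 2.96 ± 0.28, and in mCtx the ratio was 0.30 ± 0.24.

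Other synaptotagmins were lower in progenitors than in both other cell types. Syt9, a calcium sensor of some fast synapses and of secretory cells, had 41.6, 37.9 and 39.1 CPM in mESC chromatin, 1.66, 1.08 and 0.737 CPM in mNPC chromatin, and 23.4, 21.9 and 22.1 CPM in mCtx chromatin, with log2 fold changes of -5.05 ± 0.18 for mNPC over mESC and 4.24 ± 0.18 for mCtx over mNPC. Syt13 had 0.1004, 0 and 0 CPM in mNPC chromatin (2 counts), against 2.19, 1.92 and 0.850 CPM in mESC chromatin (111 counts), a ratio lower by 46.1-fold (exact 95% counting interval 12.5 to 386). Syt3, Syt5 and Syt14 were called lower in mNPC than in mESC and higher in mCtx than in mNPC, in cytoplasm and in chromatin. Syt5 had 3.3 ± 1.26 CPM in mESC, 0.650 ± 0.158 CPM in mNPC and 174 ± 6.39 CPM in mCtx cytoplasm, and Syt3 had 3.51 ± 1.04, 0.665 ± 0.213 and 37.99 ± 4.09 CPM. Syt7, a slow sensor with high calcium affinity, rose at both steps, with 6.52 ± 2.26, 56.7 ± 1.21 and 298 ± 24.2 CPM. Syt17 was lower in mCtx, in chromatin with 1.28, 1.23 and 1.39 CPM in mCtx and 9.44, 9.05 and 11.5 CPM in mNPC, a log2 fold change of -2.93 ± 0.50, and was the one synaptotagmin called lower in the cytoplasm of mCtx than of mNPC (-1.74 ± 0.51). Syt2 had 1.02, 1.26 and 2.098 CPM in mCtx cytoplasm, against 0.0861, 0 and 0.0745 CPM in mNPC cytoplasm (3 counts), a ratio of 27.8-fold (exact 95% counting interval 9.21 to 138). Syt2, Syt6, Syt10 and Syt12 averaged at most 16.6 CPM in any group, which is the mean of Syt6 in mCtx chromatin.

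Many synaptotagmins were on the chromatin side in mESC, and fewer in mNPC and mCtx. In mESC 10 of 15 were higher in chromatin than in cytoplasm and 0 lower (median 1.54), where 34.4% of all tested genes were called higher and 21.6% lower. In mNPC the counts were 4 and 2 (median -0.1, background 27.5% and 21.3%), and in mCtx 0 and 5 (median -0.65, background 26.2% and 24.4%). Syt1 had 1.41, 1.59 and 0.760 CPM in mESC chromatin, against 0.147, 0.0565 and 0.117 CPM in mESC cytoplasm, a log2 fold change of 3.52 ± 0.41 at about 1 CPM. In mCtx it had 236, 222 and 236 CPM in mCtx chromatin, against 645, 543 and 642 CPM in mCtx cytoplasm, a log2 fold change of -1.40 ± 0.15. The fractions did not overlap in either cell type, and the difference of mCtx from mESC was -4.92 ± 0.42 (edgeR adjusted p = 3e-10). Syt4 had 309, 308 and 293 CPM in mCtx chromatin, against 1190.0, 954 and 1001 CPM in mCtx cytoplasm, a log2 fold change of -1.79 ± 0.19, and 1.899, 2.37 and 2.102 CPM in mESC chromatin, against 0.0736, 0.339 and 0.349 CPM in mESC cytoplasm (2.96 ± 0.39). The difference of mCtx from mESC was -4.75 ± 0.42 for Syt4 and -2.74 ± 0.37 for Syt11, and 9 of 15 synaptotagmins were called lower in that comparison and 0 higher, against 24.9% and 15.7% of all tested genes. Between mNPC and mESC 8 were called lower and 0 higher (background 17.7% and 10.3%), and between mCtx and mNPC 2 and 0 (background 11.4% and 7.68%), the last a share near that of all genes. On the log2(TPM + 1) scale the mESC value of Syt1 was 0.20 and its mNPC over mESC fold in the cytoplasm 1.00, and the mCtx ratio of Syt4 was -0.91, none of them called. Beside these, 18 of 19 genes of the endoplasmic reticulum list were also called lower in that difference, with a median of -1.56, and their part in it was not tested.

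Among the SNARE regulators, the Munc18 paralogs Stxbp2 and Stxbp3 lay on the chromatin side in mCtx, and less far to that side in mNPC. Stxbp2, the Munc18 of epithelial and blood cell secretion at chr8:3630955-3643644 on the plus strand, had 146, 115 and 107 CPM in mESC cytoplasm, 3.87, 2.86 and 3.35 CPM in mNPC cytoplasm, and 14.1, 17.9 and 16.9 CPM in mCtx cytoplasm. It fell in mNPC relative to mESC (-5.18 ± 0.18) and rose in mCtx relative to mNPC (2.27 ± 0.17). In chromatin Stxbp2 had 99.2, 104 and 119 CPM in mESC, 9.74, 8.44 and 7.84 CPM in mNPC, and 182, 190.2 and 172 CPM in mCtx, with mCtx above both others.

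The mCtx ratio of Stxbp2 was the highest of any member, with 182, 190.2 and 172 CPM in mCtx chromatin, against 14.1, 17.9 and 16.9 CPM in mCtx cytoplasm, a log2 fold change of 3.47 ± 0.16 (edgeR adjusted p = 8.2e-16). In mNPC the ratio was 1.36 ± 0.17 and in mESC -0.19 ± 0.14, and the difference of mCtx from mNPC was 2.11 ± 0.23 and from mESC 3.66 ± 0.21, both called. In TPM, Stxbp2 was the highest member of mCtx chromatin, at 468 ± 8.88 TPM, against 17 ± 0.880 TPM in cytoplasm, and on that scale its mESC ratio also turned to the chromatin side (1.80). Stxbp3, a Munc18 of general exocytosis, had 22.1, 21.2 and 19.7 CPM in mCtx chromatin, against 5.26, 4.08 and 3.83 CPM in mCtx cytoplasm, a log2 fold change of 2.27 ± 0.16 with no overlap. It fell in the cytoplasm of mCtx relative to mNPC, with 5.26, 4.08 and 3.83 CPM in mCtx and 25.9, 31.9 and 30.03 CPM in mNPC (-2.75 ± 0.16), and the difference of its mCtx ratio from that of mESC was 2.13 ± 0.22.

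Cplx1 and Cplx2 rose at each step and lay on the cytoplasmic side in mNPC and mCtx, as Cplx1 did in mESC too. Cplx1, a main complexin of the brain, had 3.61, 7.11 and 4.43 CPM in mESC cytoplasm, 19.4, 20.8 and 21.3 CPM in mNPC cytoplasm, and 359.5, 412 and 395 CPM in mCtx cytoplasm, with log2 fold changes of 2.01 ± 0.17 for mNPC over mESC and 4.24 ± 0.17 for mCtx over mNPC. Cplx2, the other main complexin, had 1.47, 0.847 and 0.117 CPM in mESC cytoplasm, 63.8, 54.5 and 63.95 CPM in mNPC cytoplasm, and 463, 518 and 544 CPM in mCtx cytoplasm. Its fold for mNPC over mESC was 6.28 ± 0.39, moving between 5.66 and 6.93 with 1 mESC cytoplasm replicate left out, and for mCtx over mNPC it was 3.06 ± 0.28. In mCtx, Cplx2 had 53.6, 60.8 and 58.4 CPM in mCtx chromatin, against 463, 518 and 544 CPM in mCtx cytoplasm, the lowest chromatin-to-cytoplasm ratio of any member (-3.14 ± 0.28, edgeR adjusted p = 1.7e-10). Cplx1 had 60.9, 64.2 and 61.5 CPM in mCtx chromatin, against 359.5, 412 and 395 CPM in mCtx cytoplasm (-2.64 ± 0.16). In mNPC the ratios were -3.10 ± 0.30 for Cplx2 and -3.13 ± 0.19 for Cplx1, again with no overlap. In mNPC nucleoplasm Cplx1 had 8.1, 7.51 and 6.12 CPM (-1.49 ± 0.17 to the cytoplasm). The chromatin-to-cytoplasm ratio of Cplx1 in mESC ran from -1.63 to -0.77 over 17 alternatives, of which 14 kept the outcome of the main fit. In mESC chromatin Cplx2 had 0.877, 0.204 and 0 CPM and its ratio (-1.15 ± 0.61) was not called, but it became -2.78 without mESC chromatin replicate 1, -1.74 without mESC cytoplasm replicate 3, -2.12 without all mESC libraries numbered 1, -1.13 with DESeq2 and -1.21 with the replicate block, called in each case. Cplx3, a complexin of retinal ribbon synapses, had 0.887, 1.56 and 1.596 CPM (79 counts) in mCtx cytoplasm, against 0 counts in mNPC cytoplasm, at least 25.6-fold higher against a floor of 3 counts over the group. The call of Cplx3 for the difference between mNPC and mESC ratios rests on at most 5 counts in each group, and no fold is given for it.

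The tomosyns bind syntaxin in place of synaptobrevin. Stxbp5 lay on the chromatin side in all 3 cell types, with log2 fold changes of 1.90 ± 0.16 in mESC, 2.38 ± 0.16 in mNPC and 1.39 ± 0.15 in mCtx. It had 129.5, 137 and 141 CPM in mNPC chromatin, against 23.8, 29.7 and 24.7 CPM in mNPC cytoplasm. Stxbp5l had the same sign in mNPC (1.64 ± 0.45) and in mCtx (1.31 ± 0.38, or 0.98 and not called without mCtx cytoplasm replicate 2), at no more than 4.39 CPM, and on the log2(TPM + 1) scale neither was called (0.71 and 0.47). Stxbp6, or amisyn, a small syntaxin-binding protein, was on the cytoplasmic side in mCtx, with 5.17, 3.17 and 5.76 CPM in mCtx chromatin, against 26.1, 20.6 and 23.1 CPM in mCtx cytoplasm (-2.30 ± 0.26), and had 8.89, 6.53 and 9.46 CPM in nucleoplasm, a log2 fold change of -1.48 ± 0.25 to the cytoplasm (-0.96 and not called on the log2(TPM + 1) scale). Stxbp4 fell in the cytoplasm of mCtx relative to mNPC, at 17.9 ± 0.742 CPM in mCtx and 52.4 ± 6.58 CPM in mNPC (-1.55 ± 0.14).

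The synaptojanins, phosphoinositide phosphatases of vesicle uncoating, both lay on the chromatin side in mNPC. Synj1, the main form at synapses, had 31.8, 24.2 and 30.3 CPM in mESC cytoplasm, 31.03, 28.9 and 22.4 CPM in mNPC cytoplasm, and 63.8, 53 and 70.9 CPM in mCtx cytoplasm. Its cytoplasmic level overlapped between mESC and mNPC and was higher in mCtx (1.18 ± 0.17 over mNPC, or 0.48 and not called on the log2(TPM + 1) scale). In chromatin it had 63.3, 43.99 and 42.9 CPM in mESC, 153, 168 and 165 CPM in mNPC, and 341, 318 and 332 CPM in mCtx, with no overlap and a rise at each step (1.69 ± 0.17 and 1.03 ± 0.16). The fold between mCtx and mNPC there was not called without mNPC chromatin replicate 1 (0.99) on library totals (0.86) or on the log2(TPM + 1) scale (0.92). The chromatin-to-cytoplasm log2 fold change of Synj1 was 0.80 ± 0.17 in mESC (1.33 and called on library totals), 2.55 ± 0.17 in mNPC and 2.40 ± 0.17 in mCtx, and the difference of mNPC from mESC was 1.76 ± 0.24 (edgeR adjusted p = 1.2e-06). In mCtx nucleoplasm it had 187, 185 and 185 CPM, a log2 fold change of 1.57 ± 0.17 to the cytoplasm, so that the fractions were ordered chromatin, nucleoplasm, cytoplasm. Synj2, the form of wider tissue range, fell instead, with 25.7 ± 1.53 CPM in mESC, 10.9 ± 0.648 CPM in mNPC and 3.48 ± 0.549 CPM in mCtx cytoplasm, and a chromatin-to-cytoplasm log2 fold change of 1.18 ± 0.15 in mNPC.

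Most SNAREs of general traffic were read in every cell type, and progenitors held the highest level of several. Vamp3, or cellubrevin, the synaptobrevin of recycling endosomes, had 61.4, 84.3 and 72.1 CPM in mESC cytoplasm, 247, 289.8 and 306 CPM in mNPC cytoplasm, and 72.2, 73.1 and 62.02 CPM in mCtx cytoplasm. It rose in mNPC relative to mESC (1.95 ± 0.14) and fell in mCtx relative to mNPC (-2.02 ± 0.15), while Vamp2 rose over the same step. Vamp3 lies wholly within Camta1 on the same strand, whose counts came to 299% of those of Vamp3, so reads of the larger gene may be among them. In mNPC, Vamp3 had 32.9, 33.5 and 33.9 CPM in mNPC chromatin, against 247, 289.8 and 306 CPM in mNPC cytoplasm, a log2 fold change of -3.07 ± 0.15. The value was -2.13 ± 0.15 in mESC (-0.40 and not called on the log2(TPM + 1) scale) and -0.82 ± 0.14 in mCtx, and the difference of mCtx from mNPC was 2.25 ± 0.20, with a range of 1.80 to 2.36 over 23 alternatives. Nucleoplasm of mNPC had 89.7, 85.5 and 91.7 CPM of Vamp3 (-1.66 ± 0.14 to the cytoplasm).

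Vamp8, or endobrevin, a SNARE of late endosomes and of secretion in exocrine and blood cells, had 15.6, 19.5 and 16.6 CPM in mESC cytoplasm, 1.21, 0.881 and 0.671 CPM in mNPC cytoplasm, and 0.956, 1.31 and 1.14 CPM in mCtx cytoplasm. It fell in mNPC relative to mESC (-4.18 ± 0.30) and was not called between mCtx and mNPC (0.27 ± 0.33). In mESC it had 4.24, 3.91 and 5.19 CPM in mESC chromatin, against 15.6, 19.5 and 16.6 CPM in mESC cytoplasm (-1.95 ± 0.26), and in mCtx chromatin it was down to 0.256, 0.0511 and 0.288 CPM, a log2 fold change of -4.43 ± 0.37 relative to mESC chromatin. Vamp5, a VAMP of muscle, was low throughout: it had 0, 0.201 and 0.0456 CPM in mCtx and 1.42, 1.43 and 1.12 CPM in mNPC cytoplasm, a log2 fold change of -3.82 ± 0.64 that became -5.29 without mCtx cytoplasm replicate 2. In chromatin Vamp5 had 1 count in mCtx, against 143 counts in mNPC, a ratio lower by 153-fold (exact 95% counting interval 27 to 6080).

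Stx3, a syntaxin of apical membranes and of ribbon synapses, had 55.8, 68.7 and 74.6 CPM in mESC cytoplasm, 1.76, 3.75 and 2.46 CPM in mNPC cytoplasm, and 16.5, 14.6 and 17.4 CPM in mCtx cytoplasm. The mNPC libraries lay far below both others, with log2 fold changes of -4.65 ± 0.21 for mNPC over mESC and 2.62 ± 0.21 for mCtx over mNPC. In mNPC it had 19.8, 24.5 and 23.4 CPM in mNPC chromatin, against 1.76, 3.75 and 2.46 CPM in mNPC cytoplasm, a log2 fold change of 3.10 ± 0.21. The value was 0.10 ± 0.17 in mESC and 2.08 ± 0.18 in mCtx, and the difference of mNPC from mESC was 3.00 ± 0.27 (edgeR adjusted p = 1.9e-09). On the log2(TPM + 1) scale that difference was 0.90 and the mCtx over mNPC fold 0.59, neither called. Stx2, a plasma membrane syntaxin, was on the chromatin side in mCtx, with 122, 123 and 131 CPM in mCtx chromatin, against 23.6, 25.3 and 23.5 CPM in mCtx cytoplasm (2.38 ± 0.16), and its difference of mCtx from mNPC was 1.86 ± 0.22. Stx4a, another plasma membrane syntaxin, had 27.1 ± 0.574 CPM in mESC, 66.8 ± 0.905 CPM in mNPC and 30.9 ± 1.93 CPM in mCtx cytoplasm. It rose at the first step and fell at the second (1.30 ± 0.11 and -1.11 ± 0.11).

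Stx7, of late endosomes, rose at both steps, with 41.5 ± 4.46, 115 ± 7.42 and 364 ± 18.5 CPM in mESC, mNPC and mCtx cytoplasm, and had 96.5, 87.8 and 91.9 CPM in mCtx chromatin, against 379.7, 369 and 344 CPM in mCtx cytoplasm (-1.98 ± 0.12). In mNPC its ratio was -1.03 ± 0.12, a call lost on library totals (-0.72) and without mNPC chromatin replicate 3 (-0.97) and also without mNPC cytoplasm replicate 2. Stx12, of early endosomes, had ratios of -1.12 ± 0.14, -1.72 ± 0.14 and -2.17 ± 0.14 in mESC, mNPC and mCtx, all called. The mESC value was -0.61 and not called on library totals, and on the log2(TPM + 1) scale the values were -0.43, -0.44 and -1.25, of which the last was called. Stx8, which pairs with Stx7, had -2.31 ± 0.15 in mNPC and -1.98 ± 0.15 in mCtx, and Vamp7, a SNARE of late endosomes and lysosomes, -1.45 ± 0.16 and -1.94 ± 0.17. Of the Golgi syntaxins, Stx16 had 2.18 ± 0.13, 1.75 ± 0.12 and 0.63 ± 0.12 in mESC, mNPC and mCtx, and the mCtx value was not called. Stx5a, of the early Golgi, had 0.71 ± 0.12, 0.99 ± 0.12 and 1.69 ± 0.12 and was called in mCtx, with its mNPC value just under the threshold. Stx6 had -0.11 ± 0.11, -0.50 ± 0.11 and -0.93 ± 0.11, none called, though without mCtx cytoplasm replicate 1 its mCtx value was -1.01 and called. On the log2(TPM + 1) scale Stx16 was called in mCtx (1.19) and Stx5a in mESC (1.69) and mNPC (2.15). Library totals also gave calls for Stx5a in mESC (1.22) and mNPC (1.31). Stx18, of the endoplasmic reticulum, had 6.49, 7.33 and 7.94 CPM in nucleoplasm, against 17.4, 15.9 and 15.1 CPM in cytoplasm of mESC (-1.15 ± 0.13), a call lost on library totals (-0.94). Over the 17 tested traffic SNAREs the chromatin-to-cytoplasm counts were 3 higher and 3 lower in mESC, 2 and 7 in mNPC, and 3 and 5 in mCtx. The background was 34.4% and 21.6%, 27.5% and 21.3%, and 26.2% and 24.4% of all tested genes. Medians were -0.05, -0.5 and -0.71 over these SNAREs and 0.37, 0.12 and 0.0 over all genes.

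Across all 56 tested members, chromatin over cytoplasm gave 23 higher and 4 lower in mESC (41.1% and 7.14%), where 34.4% and 21.6% of all tested genes were called and the medians were 0.82 over members and 0.37 over all genes. In mNPC 16 were higher and 13 lower (28.6% and 23.2%), against 27.5% and 21.3% of all tested genes, with medians of 0.02 and 0.12. In mCtx 9 were higher and 17 lower (16.1% and 30.4%), against 26.2% and 24.4%, with medians of -0.45 and 0.0. The difference of mCtx from mESC was called lower for 27 members and higher for 7 (48.2% and 12.5%), against 24.9% and 15.7% of all tested genes, with medians of -1.15 and -0.3. The difference of mNPC from mESC was called lower for 18 and higher for 5 (32.1% and 8.93%), against 17.7% and 10.3%, with medians of -0.62 and -0.19. Scaling moves these splits: with library totals the counts were 30 and 2 in mESC, where the median of all genes is 0.88, 19 and 9 in mNPC, and 10 and 14 in mCtx. With limma on log2(TPM + 1) they were 23 and 6 in mNPC and 16 and 10 in mCtx, so that on this scale more members were higher than lower in mCtx chromatin. The shares of all tested genes called under these settings are not given here. Whether the members moved more than other genes was not tested.

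In nucleoplasm over cytoplasm the counts were 14 higher and 2 lower in mESC (25% and 3.57%, background 27.5% and 8.95%), 9 and 8 in mNPC (16.1% and 14.3%, background 16.4% and 8.56%), and 3 and 8 in mCtx (5.36% and 14.3%, background 11.7% and 9.57%). The members were also counted by family, a division made after the values were seen and given without a test. Of 19 tested synaptotagmins, synaptophysin and SV2 genes, 10 were higher in the nucleoplasm of mESC, 8 in mNPC and 1 in mCtx, with medians of 1.47, 0.91 and 0.03. Of 21 tested syntaxins and VAMPs, 2, 0 and 0 were higher and 1, 5 and 6 lower, with medians of -0.2, -0.86 and -0.63. Of the other 16 tested members, 2, 1 and 2 were higher and 1, 3 and 2 lower, among them Cplx1, with 1.53, 1.66 and 2.06 CPM in nucleoplasm, against 3.61, 7.11 and 4.43 CPM in cytoplasm of mESC (-1.54 ± 0.21, or -0.86 and not called on the log2(TPM + 1) scale). The endoplasmic reticulum list had 17, 15 and 5 of 19 genes higher in the same comparisons (medians 2.99, 2.09 and 0.46), and the mitochondrially encoded mRNAs 10, 11 and 11 of 11. The part of these lists in the members' values was not tested. In mESC, Syt4 had 2.78, 4.92 and 4.22 CPM in nucleoplasm, against 0.0736, 0.339 and 0.349 CPM in cytoplasm (3.86 ± 0.36). In mCtx, Vamp2 had 338, 344 and 391 CPM in nucleoplasm, a log2 fold change of -1.32 ± 0.13 to the cytoplasm, and Stxbp2 had 35.6, 49 and 40.4 CPM, a log2 fold change of 1.35 ± 0.15. The members named here stand without overlap between the fractions. With library totals the mNPC counts were 7 higher and 18 lower, and with RLE scaling or without the mESC libraries numbered 1 they were 9 and 4. These alternative counts are given without the shares of all tested genes at the same settings.

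**Figure D4:**
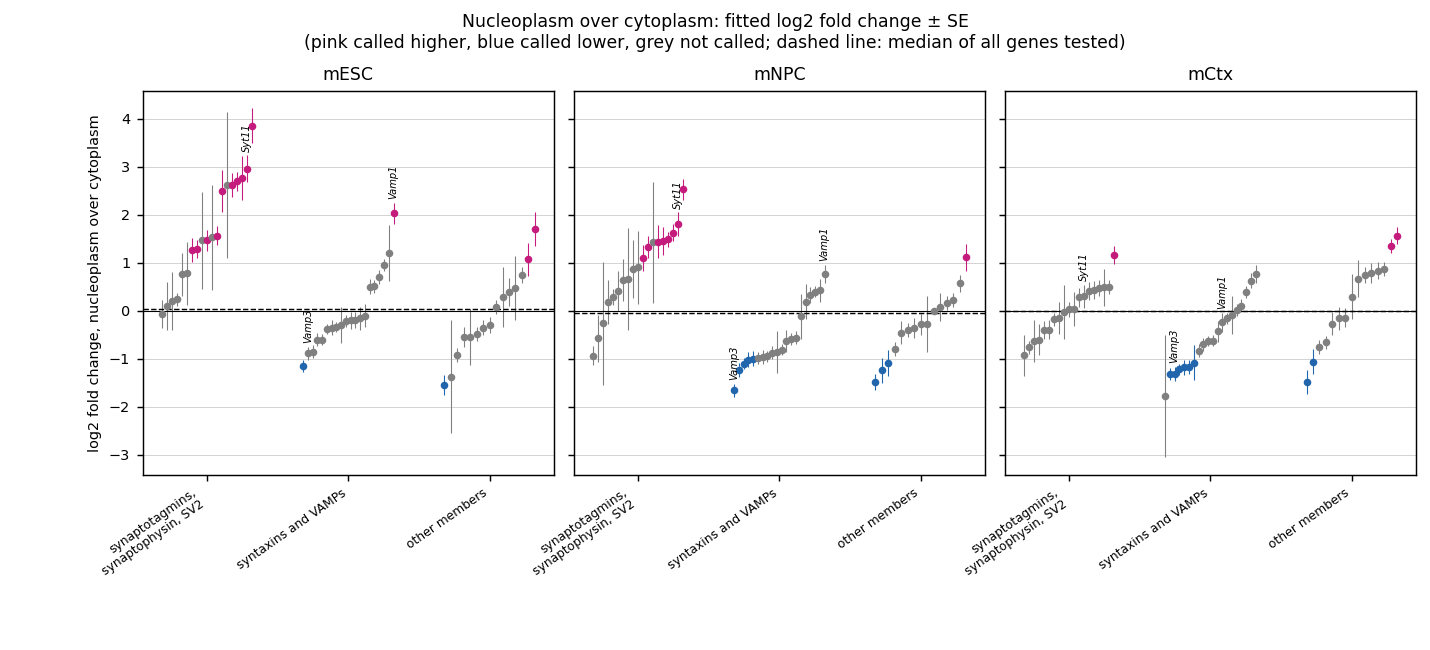
Nucleoplasm-to-cytoplasm log2 fold change of tested members of 3 families in mESC, mNPC and mCtx; points are fitted values, bars are SE, and the dashed line is the median of all tested genes. The synaptotagmin, synaptophysin and SV2 family has its median at 1.47 in mESC and 0.03 in mCtx, and syntaxins and VAMPs lie mostly below 0 in mNPC and mCtx.

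The paralog with the largest mean share of the cytoplasmic RNA was the same in all 3 cell types in the SV2 and synaptojanin families, and not in the VAMP, synapsin, complexin and synaptotagmin families. Among the VAMPs, Vamp3 held 50.3% ± 4.0 of the summed TPM in mESC and 58.4% ± 2.63 in mNPC, and Vamp2 held 86.7% ± 1.18 in mCtx. Sv2a led the SV2 family with 60.4% ± 2.74 in mESC, 71.8% ± 6.56 in mNPC and 77.1% ± 1.49 in mCtx, and Synj1 the synaptojanins with 63% ± 12.2, 77.7% ± 3.52 and 94.6% ± 1.06, though Synj2 was above it in mESC replicate 2. The synapsin RNA was mostly Syn1 in mESC (92.3% ± 6.68), Syn2 in mNPC (90.2% ± 0.834) and Syn1 in mCtx (68.2% ± 2.52). Complexin RNA was mostly Cplx1 in mESC (90.9% ± 9.15) and mCtx (64.3% ± 1.06), with Cplx2 at 54.9% ± 2.32 in mNPC. The leading synaptotagmin was Syt9 in mESC (46.7% ± 4.73), Syt11 in mNPC (83.1% ± 3.24) and Syt4 in mCtx (32.8% ± 2.95). A share says nothing of the amount: the summed synaptotagmin TPM was 23.5 ± 4.85 in mESC and 1037 ± 88 in mCtx.

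**Figure D5:**
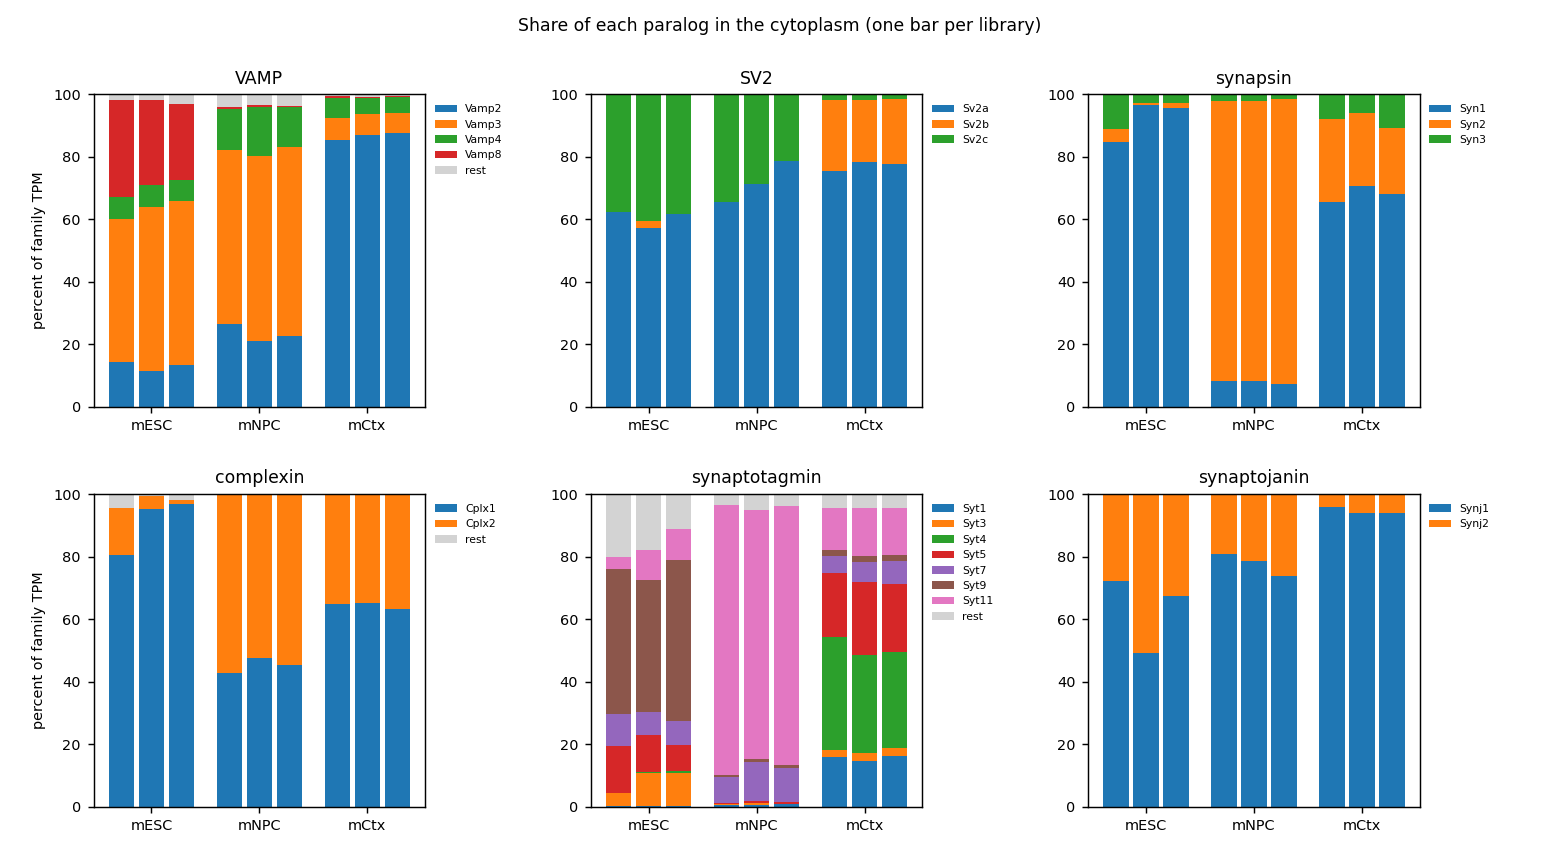
Share of each paralog in the summed cytoplasmic TPM of its family, in percent, with 1 bar per library, for the VAMP, SV2, synapsin, complexin, synaptotagmin and synaptojanin families. Sv2a and Synj1 lead their families on average in every cell type, the leading paralog of the other families differs between cell types, and the 3 libraries of a cell type have nearly the same bar, apart from the mESC libraries of the families with least RNA.

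Other genes of vesicle docking, fusion and recycling, 78 by a list and 76 of them tested, were counted in the same way. In the cytoplasm 45 rose and 5 fell in mCtx relative to mNPC (median log2 fold change 2.14, background 24.4% and 20.0%), 28 rose and 20 fell in mNPC relative to mESC (0.32, background 29.8% and 29.6%), and 49 rose and 6 fell in mCtx relative to mESC (2.4, background 35.7% and 32.2%). In chromatin over cytoplasm 24 were higher and 11 lower in mESC (0.3, background 34.4% and 21.6%), 21 and 17 in mNPC (-0.13, background 27.5% and 21.3%), and 17 and 28 in mCtx (-0.19, background 26.2% and 24.4%). The largest called rise in the cytoplasm of mCtx with counts in both groups was Slc17a7, the vesicular glutamate transporter of cortical excitatory neurons, at 110.0 ± 11 CPM in mCtx and 0.230 ± 0.0683 CPM in mNPC, a log2 fold change of 8.82 ± 0.30. The largest falls were Sytl4, a Rab27 effector of granule secretion, at a log2 fold change of -4.37 ± 0.45, and Snap23, the SNAP-25 relative of non-neuronal cells, at a log2 fold change of -2.59 ± 0.17.

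The chromatin-to-cytoplasm ratios were set against gene length. Over the 56 tested members, the Spearman correlation between the span of a gene and its chromatin-to-cytoplasm log2 fold change was 0.2 in mESC, 0.12 in mNPC and 0.17 in mCtx, and over all 18226 tested genes it was 0.17, 0.14 and 0.2. The Pearson correlation with log10 of the span was 0.3, 0.11 and 0.13 over the members. The 28 members with spans of up to 40961 bp had median log2 fold changes of 0.64, -0.31 and -0.76, and the 28 longer ones 0.90, 0.62 and -0.24. These are correlations across genes, which share libraries and are not replicates, and counts cover the span from start to end with its introns.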

How the data were processed

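For 27 libraries the authors deposited 1 table of whole-number read counts and 1 of relative abundance, both with genes as rows. The abundance values are TPM, per the file headers. In the count table the headers of all 27 libraries name cell type, fraction and replicate, with Chr for chromatin. The columns of all fractions were treated as read counts. The submitters' processing notes name the mouse build mm10 and the tools kallisto 0.43.0, featureCounts and STAR. Neither the annotation release nor the strand setting is given in the sources used here. For each of 37332 genes, the length column of the deposited counts is end minus start, inclusive, so introns lie inside the counted region. Of the members, 38 of 60 have the same start and end in GENCODE M21, which gave the symbols.

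All 27 libraries entered a single edgeR 4.0.16 quasi-likelihood fit in R 4.3.3, with TMM scaling, a mean per group and genes kept by filterByExpr (18226). The fit has 18 residual degrees of freedom, and p-values were adjusted by Benjamini-Hochberg over all genes of each of 15 comparisons. Levels are CPM on TMM-scaled totals, shown as mean ± SD of 3 libraries, and the SE is that of the fitted log2 fold change. Where a group held 3 or fewer counts, a ratio with an exact 95% counting interval, or a bound against 3 counts over the group, stands in place of the fitted fold, and both cover counting error only. Library totals ran from 10622897 to 24537526 counts, so 1 count per library is under 0.1 CPM.

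The members, the lists and the division into roles were chosen with earlier results of these data known. Results of some genes are not reported here. Every other member may be named. Values per library are given for 10 fixed members and for the 2 called members with the largest change in each direction of each comparison. Of the other vesicle genes, up to 3 called ones per direction may be named.

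Alternatives were RLE factors, library totals, DESeq2 1.42.0, a filter of 1 CPM in at least 3 libraries or none, only the compared libraries, a replicate block, no minimum fold change, limma 3.58.1 on log2(TPM + 1) or log2(TPM + 0.1) with a filter of 1 TPM in 3 libraries or none, each library left out, and the mESC libraries numbered 1 left out. Deviations from the group means were correlated between the fractions of a cell type. Same-numbered libraries gave 0.31 to 0.716 in mESC, -0.117 to 0.253 in mNPC and 0.027 to 0.137 in mCtx. Libraries of unlike number gave -0.625 to 0.122, -0.202 to 0.207 and -0.143 to 0.037 in the same order. The pairing by number was thus strong in mESC, weak in mCtx and unclear in mNPC. The main fit did not use it. The fit was run on simulated counts in which a small set of genes changed in a single group and all others kept the same mean. Such counts cannot show how the scaling holds where many genes differ, as they do between these groups. Vamp7 is not in the TPM table under the same identifier and has counts only.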

Additional observations from a re-analysis of the deposited data

Results flagged for a closer look

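These results were picked out because the chromatin-to-cytoplasm log2 fold change of a member differed between 2 cell types by the test of the difference itself, in edgeR's quasi-likelihood fit. A negative value means that the later cell type lay more to the cytoplasmic side. The 3 differences share groups, so some members appear under more than one.

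Between mCtx and mNPC, the neuronal SNAREs were lower, at -2.91 for Snap25, -2.66 for Vamp2 and -2.03 for Stx1a. Stxbp2, the Munc18 of epithelial and blood cells, was higher at 2.11 and Vamp3, the synaptobrevin of recycling endosomes, at 2.25. Vamp3 lies inside Camta1 on the same strand, and the part of shared reads was not tested.

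Between mNPC and mESC, lower values were found for the vesicle membrane genes Sv2a (-1.72) and Syp (-2.09), for the complexins Cplx1 (-1.66) and Cplx2 (-1.95) and for the synaptotagmins Syt1 (-3.94) and Syt4 (-3.20). The synaptojanin Synj1 (1.76) and the syntaxin Stx3 (3.00) were higher. The value of Cplx2 was -0.32 without mESC chromatin replicate 1, -1.49 without mESC cytoplasm replicate 3, -1.85 without mNPC chromatin replicate 3, -1.11 without all mESC libraries numbered 1 and -2.06 with the compared libraries alone, none of them called. That of Syt4 was -4.90 without mNPC chromatin replicate 1 and -2.79, not called, without mNPC cytoplasm replicate 1. On the log2(TPM + 1) scale, Sv2a came to -0.48, Syp to -0.85, Syt1 to -0.11 and Stx3 to 0.90, none of them called.

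Between mCtx and mESC, the neuronal SNAREs were at -3.12 (Snap25), -1.67 (Stx1a) and -3.57 (Vamp2), the vesicle membrane genes at -2.54 (Sv2a) and -2.73 (Syp), the synaptotagmins at -4.92 (Syt1) and -4.75 (Syt4), and the complexins at -1.17 (Cplx1) and -1.99 (Cplx2). Higher values were found for the Munc18 paralogs Stxbp2 (3.66) and Stxbp3 (2.13) and for Synj1 (1.60). The value of Cplx2 was -0.36 without mESC chromatin replicate 1, -1.46 without mESC cytoplasm replicate 3, -1.08 without all mESC libraries numbered 1 and -2.03 with the compared libraries alone, again none called. That of Cplx1 was -0.88 and not called on the log2(TPM + 0.1) scale. On the log2(TPM + 1) scale Snap25 (-1.20), Sv2a (-1.26), Syp (-1.67), Syt1 (-1.53) and Syt4 (-1.96) were nearer to 0 and still called.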

How the results depend on the processing

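Of the recomputed values of named members, 3647 kept their side of the threshold under another setting, 68 gained a call and 172 lost it. A further 21 changed sign with a call before or after. With 1 library left out, 2463 kept their side, 26 gained a call, 49 lost it and no called value changed sign. Values never called were counted as kept even where their sign changed, as for Sv2b in cytoplasm of mNPC over mESC (-1.96 to 1.85). Counts of called members stayed within 1.5 times in 320 of 324 values with a library left out. With no minimum fold change the number of called members was 32 for mESC nucleoplasm, 33 for mNPC nucleoplasm, 40 for mCtx chromatin and 28 for mCtx nucleoplasm, each over cytoplasm, and 27 for the difference between mCtx and mNPC. With limma on log2(TPM + 0.1) it was 27 for mNPC nucleoplasm, and on log2(TPM + 1), with or without a filter, 14 for the difference between mNPC and mESC. Shares of all tested genes at these settings are not given here, so the counts do not set the members apart from other genes.

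All sign changes that involved a call came with limma on TPM. They are given here for log2(TPM + 1), with the same value without a filter, and then log2(TPM + 0.1). In mNPC chromatin over cytoplasm Vamp2 was at 1.64 and 1.65. In mNPC nucleoplasm over cytoplasm Snap25 was at -0.28 and -0.50 and Stx3 at -1.10 and -1.31. Stxbp2 was at 1.80 and 1.81 in mESC chromatin over cytoplasm, and Vamp3 at -0.17 on both scales in mCtx over mESC chromatin. In the differences Stx3 (mCtx and mNPC) was at 0.84 and 0.82, and Cplx3 (mNPC and mESC) at -0.14 and -0.57. The cause was not tested. By share of counts the members took 0.165%, 0.0925% and 0.0841% in chromatin, nucleoplasm and cytoplasm of mESC, 0.294%, 0.233% and 0.233% in mNPC, and 0.59%, 0.681% and 0.795% in mCtx.

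With the replicate block, the members called for chromatin over cytoplasm in mESC were 24 higher and 5 lower, and for nucleoplasm over cytoplasm 15 and 2. The calls it added there were Cplx2 at -1.21, Syt2 at 1.04 and Vamp5 at 1.17. For the differences of the chromatin-to-cytoplasm ratio, the blocks were likewise the same-numbered libraries within each cell type. They gave 5 higher and 19 lower between mNPC and mESC, 4 and 14 between mCtx and mNPC, and 7 and 29 between mCtx and mESC. How many of all tested genes the block called is not given here, so these counts have no background beside them. Depth limits members under about 1 CPM, among them many synaptotagmins of mESC and mNPC cytoplasm.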

Other observations

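The other genes of vesicle docking, fusion and recycling also had members far to either side in the fractions. In mCtx, Unc13b, a Munc13 that opens syntaxin for fusion, had 357 ± 13.6 CPM in mCtx chromatin, against 26.4 ± 2.04 CPM in mCtx cytoplasm (log2 fold change 3.76 ± 0.14). Itsn2, an endocytic scaffold, was higher in chromatin of mCtx by 2.61 ± 0.20 and of mNPC by 2.53 ± 0.20. On the cytoplasmic side, Dnajc5, the vesicle chaperone cysteine string protein, had 92 ± 4.81 CPM in mCtx chromatin, against 667 ± 37.5 CPM in mCtx cytoplasm (log2 fold change -2.86 ± 0.13). Snap29, a SNARE of autophagosome fusion, lay on the cytoplasmic side in mCtx (-2.92 ± 0.12), in mNPC (-2.92 ± 0.12) and in mESC (-2.49 ± 0.12). Rab3b, a small GTPase of secretory vesicles, had 19.4 ± 1.04 CPM in mNPC chromatin, against 242 ± 28.1 CPM in mNPC cytoplasm (log2 fold change -3.64 ± 0.16).

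The difference of the chromatin-to-cytoplasm log2 fold change between mCtx and mNPC was called higher for 7 and lower for 14 of the 76 tested genes of that list. The background was 7.68% and 11.4% of all tested genes, and the medians were -0.14 over the list and -0.04 over all genes. Unc13b had the largest positive value (2.58 ± 0.18), followed by Rims1, an active zone scaffold (1.92 ± 0.30), and Rab3b (1.75 ± 0.20). Napb, a neuronal SNAP that helps take spent SNARE bundles apart, had the largest negative one (-3.68 ± 0.21), followed by Rab3c (-2.73 ± 0.28) and the vesicle membrane gene Syngr1 (-2.38 ± 0.20).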
